A study of Drosophila melanogaster with 24 samples.

Results

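The 6 arrays of 48 h were set against the 6 arrays of 12 h in a series of 24 competitive arrays on Drosophila melanogaster wing discs, to ask how the difference between discs with a dmyc cassette and control discs moved between these times. The arrays were chosen by the time in their titles, and every one of the 12 was used. Each array carried RNA of tub>dmyc>Gal4 discs in one dye and RNA of tub>cd2>Gal4 discs of the same time in the other. In the first genotype the ubiquitous tubulin promoter drives dmyc from a cassette that recombination can remove, after which Gal4 is driven instead, and in the second the cassette holds cd2. Larvae of the third instar, grown at 25 °C, had a heat shock of 15 min at 37 °C, which makes clones without the cassette beside cells that keep it. Both genotypes therefore share the heat shock, the tubulin promoter and Gal4 in the clones, and a whole disc mixes both kinds of cell. At 48 h and at 12 h alike, 3 arrays held the dmyc RNA in Cy5 (replicates 1 to 3) and 3 in Cy3 (replicates 4 to 6).

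Myc is a transcription factor of the basic helix-loop-helix family that promotes ribosome production and growth, and in the wing disc cells with more Myc outgrow and eliminate neighbours with less, which is known as cell competition. Flower (fwe) encodes a membrane protein whose isoforms mark cells as winners or losers, SPARC is a secreted matrix protein that protects losers for a time, and azot encodes a calcium-binding protein that marks cells for elimination. Measurements of whole discs cannot tell winners from losers, and fewer cells of a type and less RNA per cell cannot be told apart.

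All values below are on the log2 scale, and a positive ratio likely means more RNA in dmyc discs than in cd2 discs, which rests on the order of the names in the titles. A difference is the mean ratio at 48 h minus the mean ratio at 12 h, so a positive one means a higher ratio at 48 h. It says nothing of levels: ratios do not show whether a gene was expressed, and the presence of wing disc markers could not be checked. The 12 arrays each held between 11530 and 12119 values, with standard deviations over features of 0.223 to 0.293 at 48 h and 0.183 to 0.258 at 12 h. The best-correlating arrays of opposite dyes at a time were taken as dye-swap partners, here replicates 1 and 4, 2 and 5, and 3 and 6. They correlated at 0.55 to 0.75 at 48 h and 0.52 to 0.82 at 12 h, values that the choice itself favours. The labels do not say whether replicates are separate cohorts of animals, so the p-values below reflect no more than the spread between these arrays, which may be technical.

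One pair stood apart. The 12 h replicates 3 and 6 correlated with the 0 h replicates 3 and 6 at −0.82 to −0.66, while the other 12 h arrays correlated with the same 0 h arrays at −0.13 to 0.03. The same pair correlated with the 24 h replicates 3 and 4 at 0.47 to 0.61, and those 24 h arrays correlated with the 0 h replicates 3 and 6 at −0.60 to −0.46. The labels give the dyes of all these arrays. In the labelled direction BaraB was above 0 and grass below 0 on all 6 arrays of each time, this pair included. These genes were chosen after their values were seen. Why the correlations had both signs was not tested. Several differences are therefore also given without the 12 h replicates 3 and 6, or with their sign turned.

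Of 10566 measured features (8776 named genes and 1790 features with no gene name), 2 passed an adjusted p of 0.05, which is 0.0189% of all (limma, Benjamini-Hochberg). The ratio of Ttd14 rose and that of the unnamed feature 13424 fell, which is 0.00946% in each direction. The median difference over all features was −0.00, the median size was 0.0653, and 108 features differed by more than 0.5 in size. The 95% confidence interval of the difference lay wholly within ±0.5 for 9472 features, or 89.6%, and within ±1 for 10408, or 98.5%. Without adjustment, 708 features (6.7%) had a p under 0.05, 227 (2.15%) with a higher ratio at 48 h and 481 (4.55%) with a lower one. Without the 12 h replicates 3 and 6, these were 154 (1.46%) and 261 (2.47%).

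**Figure D1:**
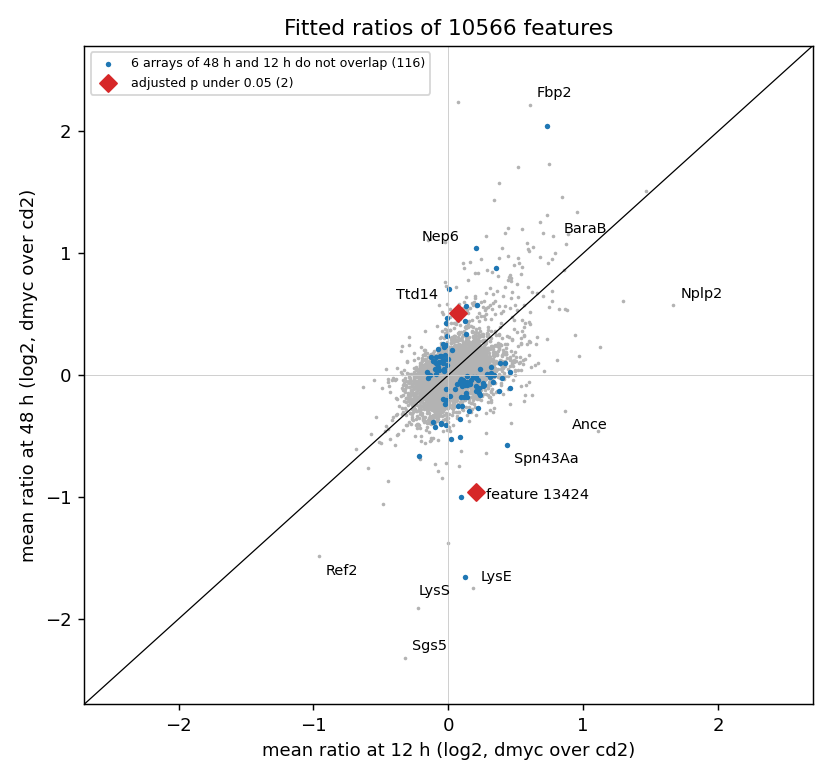
Mean dmyc over cd2 ratio at 48 h (vertical axis, log2) against that at 12 h (horizontal axis, log2). Each grey point is a feature, with 4 unnamed features beyond the axes, blue points are the 116 features whose arrays did not overlap between the times, red diamonds the 2 features that passed the test, and the line marks equal ratios; most points lie near the origin, and LysE, Sgs5 and Fbp2 are among the genes far from the line.

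Ttd14, which is needed for the light-dependent movement of TRP channels in photoreceptors, was the named gene that passed. Its ratio had a lowest value of 0.39, a median of 0.52 and a highest of 0.63 at 48 h, against −0.06, 0.11 and 0.13 at 12 h. All 6 arrays of 48 h lay above all 6 of 12 h. The ratio rose by 0.44 ± 0.07 (SE, n = 6 arrays at each time, adjusted p = 0.0255), with an interval of 0.29 to 0.59. Mean ratios by time were 0.23 (0 h), 0.07 (12 h), −0.00 (24 h) and 0.51 (48 h), so the 24 h arrays did not yet show the 48 h value. The difference stayed between 0.39 and 0.48 when arrays or pairs were left out, but the adjusted p missed the threshold in many of these fits. It was 0.117, 0.0559, 0.103 and 0.0833 without replicate 1, 3, 4 or 5 of 48 h, and 0.0925, 0.0788 and 0.0508 without replicate 1, 2 or 6 of 12 h. Without a whole pair it was 0.104 to 0.388, except that Ttd14 still passed without the 48 h replicates 3 and 6.

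Feature 13424, which the platform annotation does not name, ranged over −1.29, −0.92 and −0.67 (lowest, median, highest) at 48 h, against −0.19, 0.00 and 1.04 at 12 h. No array of 48 h reached the lowest of 12 h. Its ratio fell by 1.16 on the log2 scale (SE 0.18, adjusted p = 0.0128), with mean ratios of −0.10 (0 h), 0.20 (12 h), −0.45 (24 h) and −0.96 (48 h). The adjusted p was 0.0511 without 48 h replicate 1, 0.363 without the 48 h replicates 1 and 4, the most negative pair, and 0.867 when partners were averaged to 1 value.

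No named gene passed with a lower ratio at 48 h, and the 5 of lowest p in that direction are given as values. The ratio of veg had a lowest value of −0.56, a median of −0.25 and a highest of −0.01 at 48 h, against −0.00, 0.23 and 0.27 over 5 arrays at 12 h (difference −0.45 ± 0.10, adjusted p = 0.398). For caly, which encodes Calypso, the catalytic subunit of a Polycomb deubiquitinase that acts on histone H2A, the values were −0.32, −0.30 and −0.04 at 48 h and −0.00, 0.04 and 0.28 at 12 h (difference −0.36 ± 0.08, adjusted p = 0.398). Without replicate 3 of 48 h, the highest of veg at that time, veg passed (adjusted p = 0.0357). It also passed without the 48 h replicates 3 and 6 (0.0298). Without any other single array of 12 h or 48 h its adjusted p was 0.365 to 0.79, and with partners averaged 0.867. Without the 12 h replicates 3 and 6 the differences were −0.43 for veg and −0.29 for caly, and with them turned −0.31 and −0.20. In both genes every array of 48 h lay below every array of 12 h, and the 0 h mean ratios, −0.27 for veg and −0.11 for caly, were also below those of 12 h.

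Spn43Aa, a member of the serpin family of protease inhibitors, had the largest difference of these. Its ratio was −1.39, −0.57 and 0.06 at 48 h, against 0.22, 0.39 and 0.84 at 12 h, a difference of −1.01 ± 0.24 (adjusted p = 0.495). Mean ratios by time were −0.89 (0 h), 0.44 (12 h), 0.20 (24 h) and −0.57 (48 h), so the 2 middle times were the high ones. CG1537 had −0.25, −0.22 and −0.12 at 48 h and −0.08, 0.00 and 0.03 at 12 h (difference −0.19 ± 0.05, adjusted p = 0.52), and CG11550 had −0.29, −0.11 and −0.01 at 48 h and 0.04, 0.11 and 0.26 at 12 h (difference −0.28 ± 0.07, adjusted p = 0.52). None of these genes overlapped between the times, and none passed the test over all features. Without the 12 h replicates 3 and 6 the differences were −0.89 for Spn43Aa, −0.19 for CG1537 and −0.27 for CG11550. With that pair turned they were −0.56, −0.20 and −0.19.

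**Figure D2:**
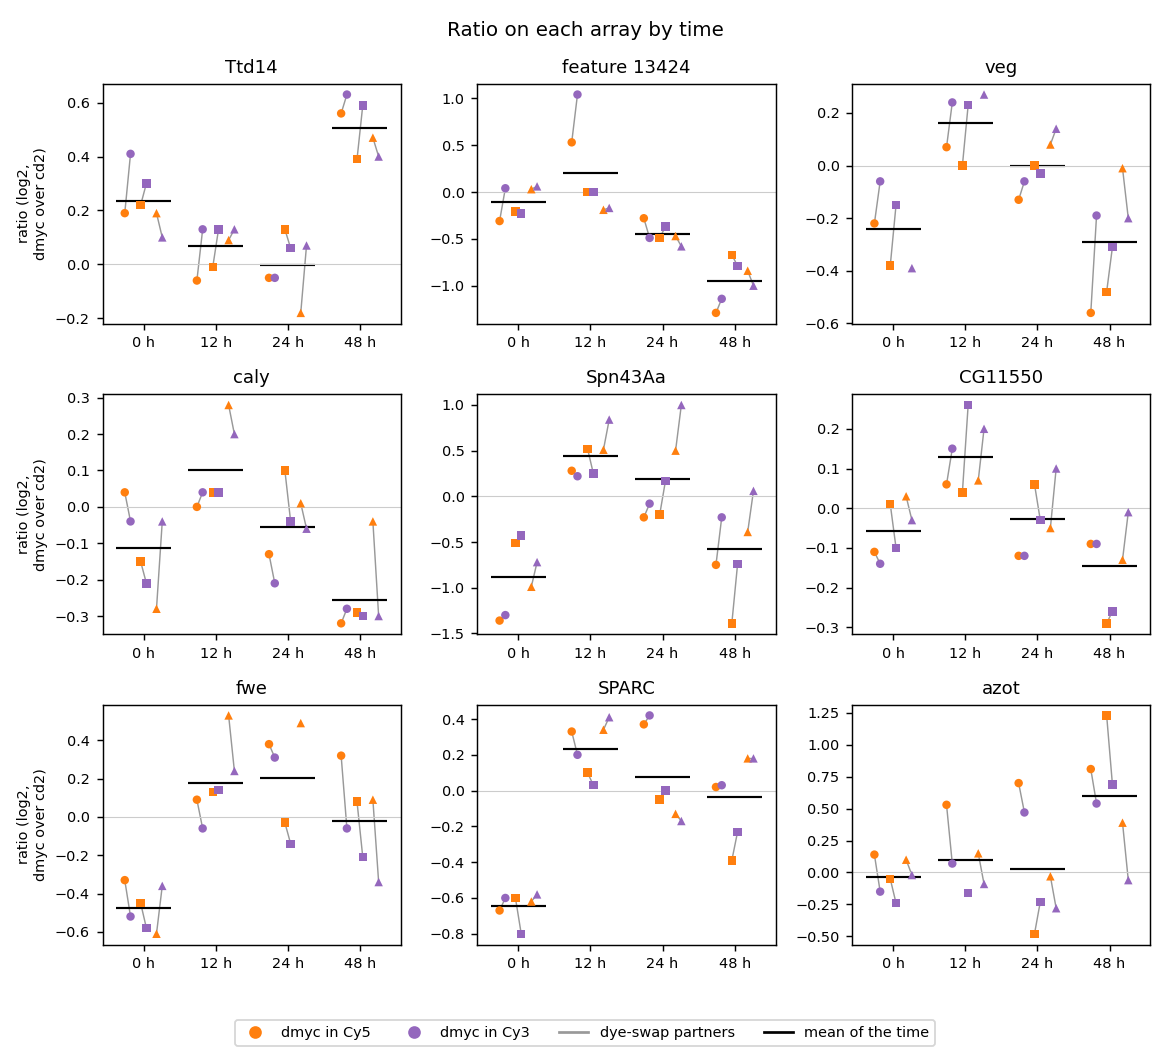
Ratio (log2, dmyc over cd2) on each array at 0, 12, 24 and 48 h for the features that passed, the genes of lowest p and the genes of cell competition. Orange points have dmyc in Cy5, purple points dmyc in Cy3, grey lines join dye-swap partners and black bars are means; the 48 h points of Ttd14 (0.39 to 0.63) lie above all its 12 h points, those of feature 13424 (−1.29 to −0.67) below, and the 48 h and 12 h points of fwe, SPARC and azot overlap.

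Among the genes that act in fitness comparison between cells, none passed in either direction. The dmyc gene itself was not analysed here. The ratio of fwe was −0.34, 0.01 and 0.32 (lowest, median, highest) at 48 h, against −0.06, 0.14 and 0.53 at 12 h, with 3 of 6 arrays above 0 at 48 h and 5 of 6 at 12 h. The difference was −0.20 ± 0.13 (adjusted p = 0.808), with an interval of −0.46 to 0.06. The times overlapped, and with the 12 h replicates 3 and 6 turned the difference was 0.05, of opposite sign. The sources used here do not say which isoforms of fwe the array detects.

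SPARC had ratios of −0.39, 0.03 and 0.18 at 48 h, against 0.03, 0.26 and 0.41 at 12 h (difference −0.27 ± 0.11, adjusted p = 0.691). All 6 arrays of 12 h were above 0 and 4 of 6 were so at 48 h, whereas all 6 arrays of 0 h were below 0, at −0.80 to −0.58. The difference was −0.13 without the 48 h replicates 2 and 5, and −0.02 with the 12 h replicates 3 and 6 turned. For azot the ratios were −0.06, 0.62 and 1.23 at 48 h over 6 arrays, against −0.16, 0.07 and 0.53 at 12 h over 5 arrays (difference 0.49 ± 0.20, adjusted p = 0.684). Its interval ran from 0.07 to 0.90, the times overlapped, and without the 48 h replicates 2 and 5 the difference was 0.31.

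Of the 9 measured members of the list of 10 genes for fitness comparison, 0 passed, 3 had a difference above 0 and 6 below 0, with a median of −0.02 beside −0.00 over all features. Besides azot, mahj, whose loss makes cells losers, had a difference of 0.53 ± 0.23 (adjusted p = 0.691). The Toll ligand spz and its receptor Tl had differences of −0.02 and −0.05, and the polarity genes scrib and dlg1 had −0.08 and −0.00.

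In all, 116 features (1.1%) had arrays that did not overlap between the times, 48 (0.454%) with all of 48 h above all of 12 h and 68 (0.644%) with all of 48 h below. The genes in this and the following paragraphs were chosen after their values were seen, except where a whole list is counted, and none of them passed. Nep6, a neprilysin-type peptidase gene, had ratios of 0.78, 1.06 and 1.26 at 48 h, against −0.06, 0.20 and 0.46 at 12 h (difference 0.84 ± 0.28, adjusted p = 0.585). Drep1, related to the DNA fragmentation factors of apoptosis, had 0.26, 0.56 and 0.90 at 48 h, against 0.07, 0.13 and 0.19 at 12 h (difference 0.43 ± 0.13, adjusted p = 0.531). In both genes all 6 arrays of 48 h were above 0.

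The features lower at 48 h included dre4, a subunit of the histone chaperone FACT, with −0.06, 0.02 and 0.12 at 48 h and 0.16, 0.27 and 1.06 at 12 h (difference −0.43 ± 0.15, adjusted p = 0.643). Rpn7, a subunit of the proteasome lid, had −0.26, −0.00 and 0.14 at 48 h and 0.16, 0.21 and 0.89 at 12 h (difference −0.43 ± 0.16, adjusted p = 0.648). The 12 h maxima of both came from the pair that stood apart: without it the differences were −0.20 for dre4 and −0.22 for Rpn7, and with its sign turned they were 0.19 and 0.11, of opposite sign. The wing pouch transcription factor nub had −0.17, 0.03 and 0.12 at 48 h and 0.19, 0.26 and 0.49 at 12 h (difference −0.28 ± 0.07, adjusted p = 0.52), with −0.22 without that pair and −0.01 with its sign turned.

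The next gene by p after those that passed was Su(var)3-3, the histone demethylase LSD1, with ratios of −0.15, 0.02 and 0.22 at 48 h and −0.55, −0.30 and −0.12 at 12 h. Its difference was 0.37 ± 0.07 (adjusted p = 0.193), and its 12 h arrays were the low ones, with 0 of 6 above 0, while its mean at 0 h was 0.06. The JNK phosphatase gene puc, a target and brake of JNK signalling, had 0.08, 0.30 and 0.43 at 48 h and −0.06, 0.00 and 0.14 at 12 h (difference 0.25 ± 0.06, adjusted p = 0.52). All 6 arrays of 48 h were above 0 for puc, and the other 11 measured genes of the JNK pathway had differences from −0.16 for kay, the Drosophila Fos, to 0.05 for Traf6.

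For 96 of the 116 features without overlap, or 82.8%, the 24 h mean ratio lay between those of 12 h and 48 h, which held for 37% of all features. Of the 68 that were lower at 48 h, 62 had a 0 h mean below the 12 h mean, as had 49.8% of all features. The 12 h values enter both the choice of these features and these shares, which are therefore given as a description.

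The factors of ribosome assembly and rRNA processing, classic targets of Myc, mostly had ratios above 0 at both times. Of 44 measured members of the list of 54, 42 had a mean ratio above 0 at 48 h and 39 at 12 h, with medians of 0.16 at 48 h and 0.15 at 12 h. The median difference was 0.00, 22 members were above 0 and 22 below, 0 passed, and 38 had an interval within ±0.5. Without adjustment 2 members had a p under 0.05 with a higher ratio at 48 h and 0 with a lower one, beside 2.15% and 4.55% of all features. With the 12 h replicates 3 and 6 turned, the median difference was 0.14, and 4 members had such a p with a higher ratio and 0 with a lower one. In that fit 515 of 10566 features had such a p in either direction. The array means over the list were 0.11, 0.20 and 0.23 (lowest, median, highest) at 48 h and 0.11, 0.19 and 0.26 at 12 h, and the means at 0 h were −0.12, −0.03 and 0.16.

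Fibrillarin (Fib), the methyltransferase of box C/D snoRNPs, had ratios of 0.20, 0.39 and 0.57 at 48 h and 0.14, 0.54 and 0.95 at 12 h (difference −0.16 ± 0.15, adjusted p = 0.887). The difference of Fib was −0.00 without the 12 h replicates 3 and 6, and 0.42 with them turned. Gar1, a protein of box H/ACA snoRNPs, had −0.10, 0.59 and 1.31 at 48 h and −0.16, 0.11 and 0.46 at 12 h (difference 0.40 ± 0.19, adjusted p = 0.742). Non1, a nucleolar GTPase gene, had −0.09, 0.12 and 0.35 over 5 arrays at 48 h and 0.04, 0.70 and 0.98 over 6 at 12 h (difference −0.43 ± 0.22, adjusted p = 0.756), or 0.14 with the 12 h replicates 3 and 6 turned. The times overlapped in all of these, and members of the list lay on either side of 0.

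Of the 8 measured genes of RNA polymerase I and its factors, 8 had a mean ratio above 0 at 48 h and 7 at 12 h, with medians of 0.22 and 0.18 and a median difference of 0.04, or 0.19 with the 12 h replicates 3 and 6 turned. None passed, and 3 subunit genes had an unadjusted p under 0.05 with a higher ratio at 48 h, beside 2.15% of all features. Without the 12 h replicates 3 and 6 there were 2 such genes, beside 1.46% of all features. Polr1H, a small subunit, had ratios of 0.06, 0.21 and 0.47 at 48 h and −0.14, −0.05 and 0.13 at 12 h (difference 0.26 ± 0.07, adjusted p = 0.52). Polr1B, the second largest subunit, had 0.27, 0.31 and 0.46 at 48 h and 0.08, 0.11 and 0.26 at 12 h, without overlap (difference 0.20 ± 0.07, adjusted p = 0.643). Polr1E had a difference of 0.18 ± 0.07 (adjusted p = 0.684), while Polr1A, the largest subunit, had 0.23, 0.34 and 0.77 at 48 h and 0.09, 0.44 and 0.68 at 12 h (difference 0.03 ± 0.10, adjusted p = 0.983). At 0 h, Polr1H, Polr1B and Polr1E were above 0 on all 6 arrays, with means of 0.25, 0.12 and 0.09. The 0 h mean of Polr1H was thus close to its 48 h mean of 0.23. Structural proteins of the ribosome had medians close to 0 at both times: 0.01 at 48 h and −0.00 at 12 h over 30 cytoplasmic ones, and 0.04 and −0.02 over 62 mitochondrial ones.

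Aminoacyl-tRNA synthetases, which charge tRNAs with amino acids, had lower ratios at 48 h as a list, though 0 of 25 passed. Their median ratio was 0.03 at 48 h and 0.19 at 12 h, with 16 members above 0 at 48 h and 22 at 12 h, and the median difference was −0.12 with 19 members below 0. Without adjustment 6 of 25 had a p under 0.05 with a lower ratio, beside 4.55% of all features. TyrRS had ratios of −0.19, 0.14 and 0.41 at 48 h and 0.36, 0.49 and 1.01 at 12 h (difference −0.43 ± 0.14, adjusted p = 0.578). Without the 12 h replicates 3 and 6 the median difference of the list was −0.04, with 2 members under an unadjusted p of 0.05, beside 2.47% of all features. With that pair turned it was 0.02, of opposite sign, and the difference of TyrRS was 0.13.

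The endoplasmic reticulum translocon and its chaperones, through which secreted and membrane proteins pass, had a median ratio of −0.05 at 48 h and 0.08 at 12 h over 13 measured members. The median difference was −0.13, 11 members were below 0, 0 passed, and 5 had an unadjusted p under 0.05 with a lower ratio, beside 4.55% of all features. Sec61alpha, the channel of the translocon, had −0.44, −0.02 and 0.13 at 48 h and 0.08, 0.32 and 1.36 at 12 h (difference −0.63 ± 0.26, adjusted p = 0.684). CaBP1, a protein disulfide isomerase, had −0.53, −0.31 and 0.04 at 48 h and −0.15, 0.11 and 0.92 at 12 h (difference −0.59 ± 0.17, adjusted p = 0.529). The 12 h replicates 3 and 6 held the highest values of Sec61alpha, and without them its difference was −0.30 and that of CaBP1 −0.33, while the median of the list was −0.16 with 2 members under such a p, beside 2.47% of all features. With that pair turned the median was −0.03 with 1 member under such a p, beside 515 of 10566 features in either direction. Sec61alpha then had a difference of 0.17, of opposite sign, and CaBP1 had −0.04.

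The cytoskeletal lists rested on the same pair more heavily. All 8 measured tubulins had a difference below 0, with a median of −0.11, and 6 of 9 actins and actin bundlers had one, with a median of −0.17. The muscle actin gene Act87E had −0.68, −0.09 and 0.15 at 48 h and 0.04, 0.21 and 1.55 at 12 h (difference −0.73 ± 0.26, adjusted p = 0.628). The tubulin gene betaTub56D had −0.89, −0.32 and 0.11 at 48 h and −0.47, 0.00 and 1.90 at 12 h (difference −0.86 ± 0.39, adjusted p = 0.701). Without the 12 h replicates 3 and 6 the differences were −0.29 for Act87E and −0.22 for betaTub56D, and the medians −0.06 for tubulins and −0.07 for actins. With that pair turned, both medians were 0.06 and the differences of these genes were 0.23 and 0.30. Both medians thus kept their sign without the pair and changed it with the pair turned. The gap junction genes (innexins), 5 measured, had a median difference of −0.23, −0.07 without the pair and 0.01 with it turned, and the 9 measured genes of the TCA cycle had −0.17, −0.08 and 0.12.

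**Figure D3:**
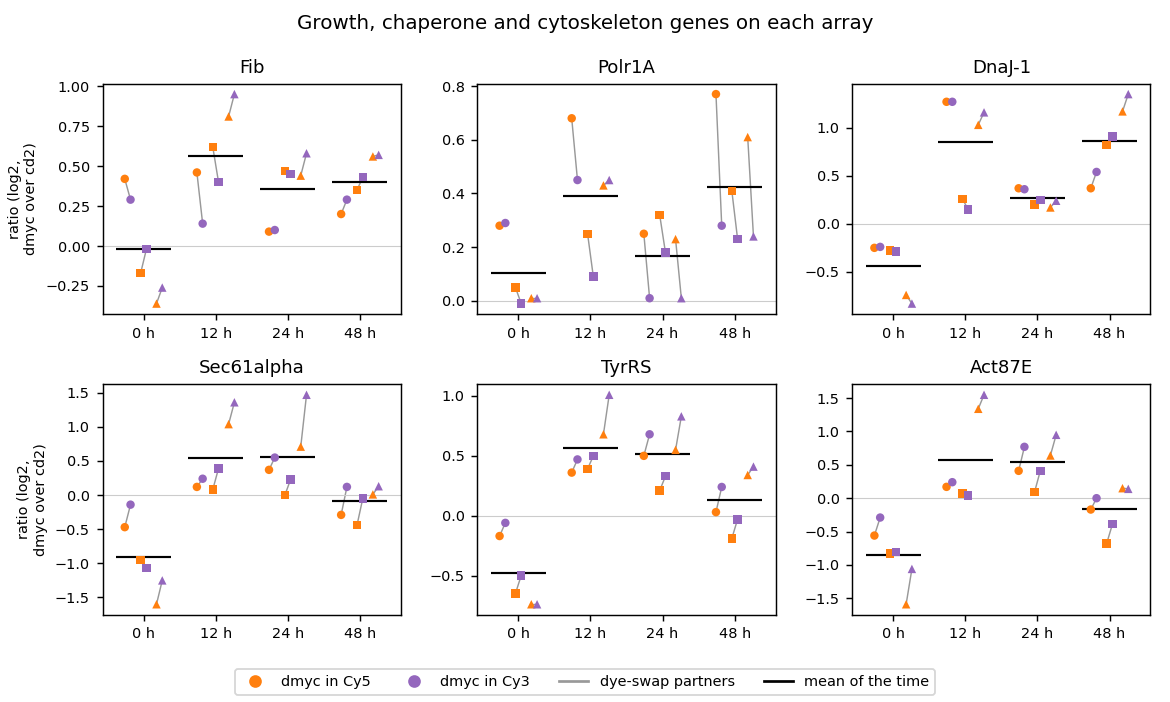
Ratio (log2, dmyc over cd2) on each array by time for genes of ribosome production (Fib, Polr1A), a chaperone (DnaJ-1), protein translocation (Sec61alpha), tRNA charging (TyrRS) and an actin (Act87E). Orange points have dmyc in Cy5, purple points dmyc in Cy3, grey lines join partners, triangles are the pair with replicate 3 and black bars are means; the 12 h triangles of Sec61alpha and Act87E, up to 1.36 and 1.55, lie above the other 12 h points, and the 0 h triangles lie at the bottom.

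Of the 21 measured heat shock genes, 12 had a mean ratio above 0 at 48 h and 15 at 12 h, with medians of 0.05 at 48 h and 0.11 at 12 h, and 0 passed. DnaJ-1, an HSP40 co-chaperone, had 0.37, 0.87 and 1.35 at 48 h and 0.15, 1.10 and 1.27 at 12 h (difference 0.01 ± 0.19, adjusted p = 0.999). Means by time were −0.44 (0 h), 0.86 (12 h), 0.26 (24 h) and 0.86 (48 h), lower at 24 h than at the times on either side. Hsp26, a small heat shock protein gene, had 0.01, 0.64 and 0.97 at 48 h and 0.46, 0.69 and 1.30 at 12 h (difference −0.19 ± 0.18, adjusted p = 0.892). Hsp68, an inducible HSP70 relative, had −0.53, 0.90 and 1.45 at 48 h and 0.51, 0.78 and 2.83 at 12 h (difference −0.69 ± 0.43, adjusted p = 0.80). Hsp68 was above 0 on 4 of 6 arrays at 48 h and on 6 of 6 at 12 h. Its difference ran from −1.10 to −0.04 when arrays or pairs were left out. With the 12 h replicates 3 and 6 turned, the differences were 0.74 for DnaJ-1 and 0.32 for Hsp26, the second of opposite sign.

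Other genes kept a ratio of 1 sign on all 12 arrays. Of 10566 features, 177 were above 0 and 106 below 0 on every measured array of both times. BaraB, of the Baramicin family of secreted peptides, had 0.54, 1.23 and 1.41 at 48 h and 0.13, 0.92 and 1.22 at 12 h (difference 0.36 ± 0.21, adjusted p = 0.783). The serine protease gene grass, which acts upstream of Toll, had −1.03, −0.73 and −0.55 at 48 h and −0.88, −0.61 and −0.30 at 12 h (difference −0.16 ± 0.12, adjusted p = 0.854). Ref2, of the family of REF mRNA export adaptors, had −2.23, −1.46 and −0.77 at 48 h and −1.58, −0.75 and −0.56 at 12 h (difference −0.53 ± 0.23, adjusted p = 0.691). The first 2 of these genes also kept their sign on all 12 arrays of 0 h and 24 h, and Ref2 on 11 of them.

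**Figure D4:**
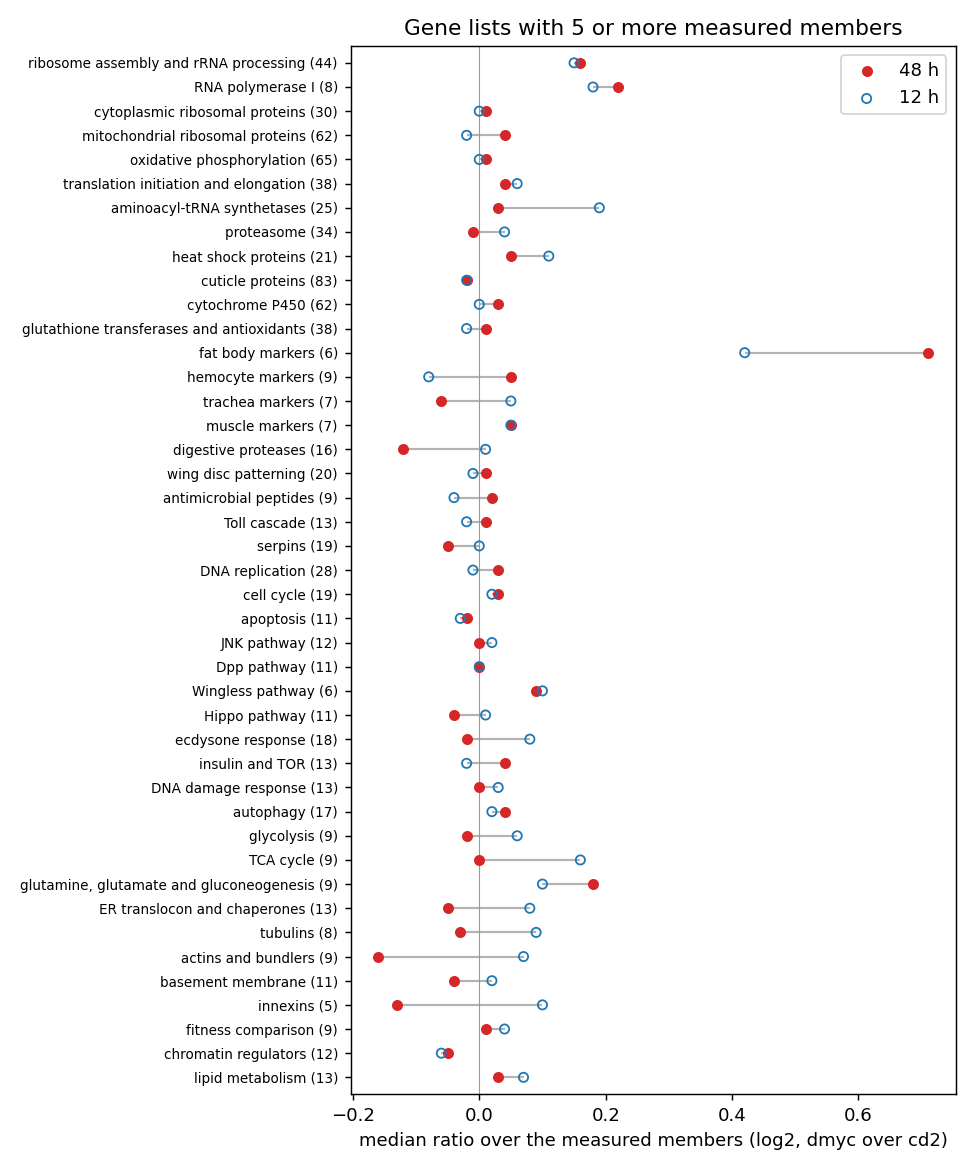
Median ratio (log2, dmyc over cd2) over the measured members of each gene list at 48 h (filled red) and 12 h (open blue), for the 43 lists with 5 or more measured members, whose number is in brackets. Ribosome assembly (0.16 and 0.15) and RNA polymerase I (0.22 and 0.18) lie right of 0 at both times, fat body markers lie farthest right (0.71 and 0.42), and aminoacyl-tRNA synthetases are closer to 0 at 48 h (0.03) than at 12 h (0.19).

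Some genes of tissues other than the disc had large differences between the times, which varied between pairs of arrays. Lysozymes, secreted by the midgut, had a mean ratio over 3 measured genes of −2.65 and −2.64 on the 48 h replicates 1 and 4, −1.27 and −0.93 on replicates 2 and 5, and −0.22 and −0.13 on replicates 3 and 6. At 12 h the same mean lay between −0.11 and 0.38. LysE had −3.49, −1.70 and −0.01 at 48 h and −0.23, 0.14 and 0.68 at 12 h (difference −1.93 ± 0.61, adjusted p = 0.578), and LysS had −3.38, −1.27 and −0.31 at 48 h and −0.23, 0.07 and 0.52 at 12 h (difference −1.78 ± 0.63, adjusted p = 0.639). None of the 3 passed, and the median difference of −1.78 was −0.92 without the 48 h replicates 1 and 4. The digestive serine proteases, 16 measured, had a median difference of −0.14, or −0.01 without that pair, and Jon65Aiv had −1.95 on replicate 4 and less on replicate 1 of 48 h, −0.37 to −0.10 on the other 48 h arrays, and 0.01 to 0.17 at 12 h over 5 arrays.

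The salivary gland genes Sgs5 and Sgs4 differed on the same pair. Sgs5, a glue protein gene, had −6.56 and −6.68 on the 48 h replicates 1 and 4, −0.65 to 0.38 on the other 48 h arrays, and −0.82 to −0.06 at 12 h (interval of the difference −4.22 to 0.23, adjusted p = 0.77). Sgs4 had −2.88 and −2.17 on that pair, while Sgs1 had −0.09 and −0.35 and a difference of −0.04 (adjusted p = 0.961). Over the 3 measured salivary gland markers the mean ratio was −3.17 and −3.07 on that pair, −0.16 to 0.12 on the other 48 h arrays and −0.37 to 0.00 at 12 h. The median difference of −0.71 became 0.16 without that pair, so its direction rested on these arrays.

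Fat body markers, of which 6 of 11 were measured, had a median difference of 0.52, the highest of the lists with 5 or more measured members, and 0 passed. Their mean ratio was 1.48 and 1.39 on the 48 h replicates 2 and 5 and 0.42 to 0.76 on the other 48 h arrays. At 12 h it was 0.96 and 0.90 on replicates 1 and 4, 0.26 on both replicates 2 and 5, and −0.25 and −0.23 on replicates 3 and 6. Fbp2, a fat body protein gene, had 0.89, 1.61 and 4.33 at 48 h and −1.03, 0.90 and 1.91 at 12 h (difference 1.61 ± 0.91, adjusted p = 0.783). The lipoprotein gene apolpp had 0.76, 1.34 and 1.72 at 48 h and −0.07, 0.35 and 1.81 at 12 h (difference 0.58 ± 0.56, adjusted p = 0.895). All 6 arrays of 48 h were above 0 for both genes, and the times overlapped. These differences were 0.82 for Fbp2 and 0.25 for apolpp without the 12 h replicates 3 and 6, and the median of the list was then 0.25. That median was 0.27 without the 48 h replicates 2 and 5, where Fbp2 had 0.66, and 0.32 with the 12 h replicates 3 and 6 turned. The other measured markers were less uniform, with differences of 0.54 for Fbp1, 0.50 for Adh, 0.27 for Lsd-1 and −0.18 for Mtp. Fbp1 and Lsd-1 were above 0 on 4 of 6 arrays of 48 h, and Fbp1 was below 0 on all 6 of 12 h. Without the 12 h replicates 3 and 6, Adh had a difference of −0.05.

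**Figure D5:**
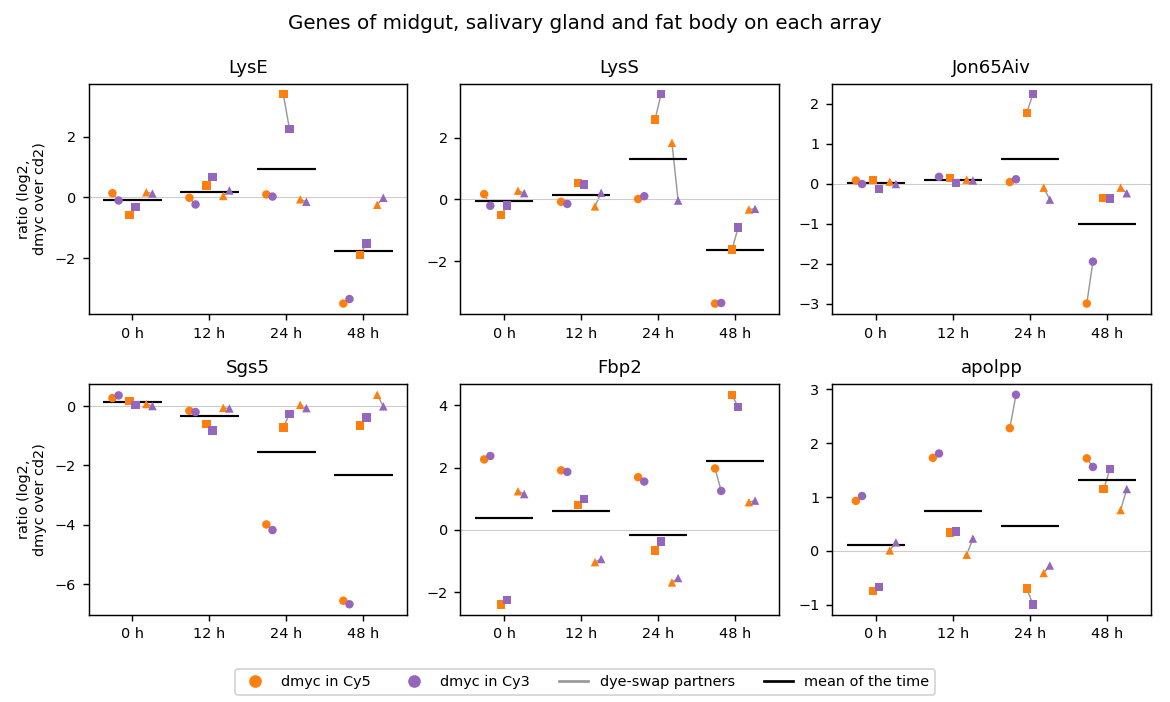
Ratio (log2, dmyc over cd2) on each array by time for genes of midgut (LysE, LysS, Jon65Aiv), salivary gland (Sgs5) and fat body (Fbp2, apolpp). Orange points have dmyc in Cy5, purple points dmyc in Cy3, grey lines join partners and black bars are means; partners lie close together while pairs of the same time differ, as in Sgs5, where replicates 1 and 4 of 48 h are at −6.56 and −6.68 and the other 48 h arrays lie between −0.65 and 0.38.

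Blood cell, tracheal and muscle markers had median differences of 0.12, −0.11 and 0.08, smaller in size than that of fat body markers. Hemocyte markers had a median ratio of 0.05 at 48 h and −0.08 at 12 h over 9 genes, and tracheal markers −0.06 and 0.05 over 7. Muscle markers had 0.05 at both times over 7 genes. Of the 7 tracheal genes, 2 had an unadjusted p under 0.05 with a lower ratio, beside 4.55% of all features. Without the 12 h replicates 3 and 6 it was 1, beside 2.47%. Single members differed more than the medians, such as the hemocyte marker NimC2 (difference 0.52, adjusted p = 0.695) and the muscle marker Act87E (−0.73, adjusted p = 0.628). Nplp2, counted here among the hemocyte markers, had 2.69 and 3.03 on the 48 h replicates 3 and 6 and −0.83 to −0.38 on the other 48 h arrays, against 3.67 and 3.92 on the 12 h replicates 1 and 4 and −0.22 and 0.47 on the other 2 measured arrays of 12 h. The part of tissue outside the disc in any of the differences above was not tested.

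Genes under ecdysone, the steroid hormone that drives metamorphosis, had a median ratio of −0.02 at 48 h and 0.08 at 12 h over 18 genes, with 0 passing and 4 under an unadjusted p of 0.05 with a lower ratio, beside 4.55% of all features. Ance, a secreted peptidase of the angiotensin-converting enzyme family, had −2.09 and −2.50 on the 48 h replicates 2 and 5 but 0.26 to 1.08 on the other 48 h arrays, against 0.10 to 1.59 at 12 h (difference −1.16 ± 0.50, adjusted p = 0.692). ImpE3, an ecdysone-inducible gene of imaginal discs, had −0.39, −0.19 and 0.02 at 48 h and 0.05, 0.14 and 0.25 at 12 h, without overlap (difference −0.32 ± 0.15, adjusted p = 0.71). Without the 12 h replicates 3 and 6, 1 of the 18 had such a p with a lower ratio, beside 2.47% of all features. The median difference was −0.05 with all arrays and −0.08 without that pair. With that pair turned the median difference was −0.00.

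Of 19 measured serpins, 5 had an unadjusted p under 0.05 with a lower ratio at 48 h and 1 with a higher one, beside 4.55% and 2.15% of all features, 0 passed, and the median difference was −0.04. Besides Spn43Aa, Spn77Ba had −0.19, −0.07 and 0.03 at 48 h and 0.04, 0.12 and 0.29 at 12 h, without overlap (difference −0.20 ± 0.08, adjusted p = 0.657). Spn42Dd differed the other way, by 0.27 ± 0.10 (adjusted p = 0.643). Without the 12 h replicates 3 and 6, 4 had such a p with a lower ratio and 1 with a higher one, beside 2.47% and 1.46% of all features.

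The basement membrane, the matrix sheet under the epithelium to which SPARC belongs, had a median difference of −0.15 over 11 measured genes, 9 of them below 0 and 0 passing. The perlecan gene trol had −0.41, −0.09 and 0.03 over 6 arrays at 48 h and −0.06, 0.19 and 0.26 over 5 at 12 h (difference −0.30 ± 0.10, adjusted p = 0.618). The collagen IV gene vkg had −0.21, 0.06 and 0.15 at 48 h and 0.10, 0.23 and 0.57 at 12 h (difference −0.28 ± 0.10, adjusted p = 0.644). The other collagen IV gene, Col4a1, had −0.04, 0.04 and 0.11 at 48 h and 0.00, 0.04 and 0.52 at 12 h (difference −0.14 ± 0.09, adjusted p = 0.81). The median was −0.14 without the 12 h replicates 3 and 6 and −0.13 with them turned.

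Several lists of patterning, proliferation and death had medians near 0 at both times, with 0 members passing. Wing disc patterning genes, 20 measured, had a median ratio of 0.01 at 48 h and −0.01 at 12 h. DNA replication (28 genes) had 0.03 and −0.01, the cell cycle (19) 0.03 and 0.02, apoptosis (11) −0.02 and −0.03, and the Dpp pathway (11) 0.00 at both times. The Wingless pathway, with 6 measured genes, had a median ratio of 0.09 at 48 h and 0.10 at 12 h. The interval of the difference lay within ±0.5 for 27 of 28 replication genes, 18 of 19 cell cycle genes and 12 of 12 JNK pathway genes. In apoptosis, the caspase gene Dronc had a difference of −0.27 ± 0.13 (adjusted p = 0.742) and the pro-apoptotic gene grim 0.05 ± 0.08 (adjusted p = 0.958). In the Hippo pathway, the growth-promoting coactivator gene yki had −0.31 ± 0.14 (adjusted p = 0.695).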

How the data were processed

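The values are the log2 ratios that the authors deposited in the series matrix, 1 per feature and array. Per the labels' protocols, disc RNA was amplified in 2 rounds and labelled with Cy5 or Cy3. Not given in the sources used here are the log base (2 was assumed), background correction, normalization and filter. No signal intensities come with the ratios, so the number of arrays sets the precision, and amplification or compression of ratios could change every size.

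Of 12359 features, 169 at inferred control positions were left out. The platform annotation named 1 gene for 10289 features, several for 56 and none for 1845, and 9992 of the first matched the RefSeq gene table. Ratios were centred on the median of their array, features of a gene were averaged (1032 genes had several), and 4 values of 6 were required at each time, with 1.58% missing values, which limma leaves out.

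The limma package 3.58.1 (R 4.3.3) was run on all 24 arrays, with 1 coefficient per time, 1 for dye, and dye-swap partners as a random block (duplicateCorrelation with statmod 1.5.0, correlation 0.443). Partners are not named in the labels and were taken as the best-correlating arrays of a time with opposite dyes. The contrast was 48 h minus 12 h, two-sided, with Benjamini-Hochberg adjustment over all features at 0.05. The fit was tested on simulated data.

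Genes named by rule were fwe, SPARC, azot and dmyc where measured, up to 12 genes in each direction that passed without overlap, and, in a direction where none passed, the 5 of lowest p. Other genes were chosen after their values were seen. The arrays compared, the 48 gene lists and the rule were chosen with earlier results of these data known. Alternatives were other normalizations, filters, blocks, dye settings, arrays or pairs left out, and arrays turned round.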

Additional observations from a re-analysis of the deposited data

Results flagged for a closer look

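Among 180 groups of up to 6 arrays (90 genes or features at 48 h and at 12 h), 7 held 1 array far from the others by Dixon's criterion, which chance marks in about 1 of 20 groups. At 48 h, caly was at −0.04 on replicate 3 and at −0.32 to −0.28 on the other arrays. The wing pouch gene nub was at −0.17 on replicate 1 of 48 h, against 0.02 to 0.12 on the others. The fat body gene Mtp, which encodes a lipid transfer protein, was at −0.23 on the same array, against 0.12 to 0.22. The salivary gland gene Sgs1 was at −0.35 on replicate 4 of 48 h, against −0.09 to 0.04. At 12 h, the digestive protease gene Jon65Aiii was at 0.36 on replicate 4, against −0.12 to −0.04 on the others. Hsp26 was at 1.30 on the same array, against 0.46 to 0.77. The tRNA synthetase gene GlyRS was at 0.41 on replicate 6 of 12 h, against 0.17 to 0.26.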

How the results depend on the processing

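Of 10566 features, 2 passed, and this count stayed at 2 without centring, with scaling, with other filters on missing values, without the dye coefficient, with array weights and with robust moderation. It was 1 after quantile normalization, 1 over named genes alone, 8 without the block of partners, 5 with the replicate block, and 0 with partners averaged (574 at an unadjusted p under 0.05). It was also 0 on the 12 arrays alone with the partner block (682 unadjusted), on arrays with dmyc in Cy5 (955) and in Cy3 (684), and 123 with replicates 4 to 6 turned round. In that last fit the correlation within pairs was −0.578, against 0.443 in the main fit. Leaving out 1 array gave 0 to 3, and leaving out 1 pair 0 to 4. The cause of these moves was not tested. Ttd14 missed the threshold with quantile normalization (adjusted p = 0.0634), partners averaged (0.397), the 12 arrays alone with the partner block (0.108) and each dye alone (0.204 and 0.528), and feature 13424 with partners averaged (0.867), the 12 arrays alone (0.44, or 0.133 without the block) and each dye alone (0.204 and 0.503), with differences of 0.41 to 0.47 and −1.27 to −1.05. With replicates 4 to 6 turned, differences reversed to 0.11 for fwe, 0.07 for veg, 0.03 for caly, 0.01 for CG1537, 0.05 for CG11550 and 0.11 for feature 13424. With the 12 h replicates 3 and 6 turned, an alternative chosen after seeing the data, fwe reversed to 0.05, and 22 of 80 genes described without a test changed sign. The labels do not say whether replicate numbers pair the samples of 48 h and 12 h. Deviations of arrays with the same number correlated at −0.16 to 0.125, which cannot settle it. The replicate block brought veg past the threshold (adjusted p = 0.00395). Without the partner block veg (0.0391), caly (0.0334), CG1537 (0.0334) and CG11550 (0.0469) passed. Signal over background is unknown, and 6 arrays a time in 3 pairs left a median interval of ±0.18.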

Other observations

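Features at inferred control positions were kept out of the tests. Over the 48 features at position 4 of the print block, the array medians were −3.43, −2.84 and −2.62 (lowest, median, highest) at 48 h, against −1.60, 0.09 and 0.50 at 12 h. Over the 20 features at position 5 they were −5.16, −4.92 and −4.46 at 48 h, against −4.76, −3.74 and −1.84 at 12 h. Over the 46 features at position 2 they were −0.79, −0.14 and 0.29 at 48 h, against −0.06, 0.18 and 1.65 at 12 h. Over the 19 features at position 6 they were −1.26, −0.07 and 0.64 at 48 h, against −0.20, −0.05 and 2.41 at 12 h. The times overlapped at positions 2, 5 and 6 but not at position 4. Over the 36 features at position 7 they were −0.16 to 0.01 at 48 h and −0.12 to 0.11 at 12 h. The sources used here do not say what is printed at these positions.

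The gene with the largest difference among the cytochrome P450 genes, 62 measured, was Cyp6g1, a detoxification enzyme known for insecticide resistance, at 1.11 ± 0.80 (adjusted p = 0.832). Cyp4g1, which makes cuticular hydrocarbons in oenocytes, had 0.28 ± 0.10 (adjusted p = 0.607). Among 12 measured chromatin regulators, corto had 0.38 ± 0.12 (adjusted p = 0.578) and nej, the CBP acetyltransferase gene, 0.36 ± 0.14 (adjusted p = 0.684). Among 17 measured autophagy genes, Atg2, a lipid transfer protein of the growing autophagosome, had 0.50 ± 0.20 (adjusted p = 0.684). These genes were chosen after their values were seen, and none passed.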
